A study of Homo sapiens with 15 samples.

Results

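Carbonic anhydrases interconvert CO2 and bicarbonate, and the SLC4 proteins carry bicarbonate across membranes. Here 10 genes of these families, CA1, CA2, CA5B, CA8, CA12, CA13, SLC4A1, SLC4A2, SLC4A3 and SLC4A7, were followed in RNA-seq libraries of K562 cells, a human BCR-ABL1+ chronic myeloid leukemia line of erythroleukemic character. The genes were chosen by family and by their presence in the expression tables, with earlier results of these data known, among them the high CA2 values of HSP90β-KO cells. CA2 in the knockout libraries is therefore described without a test. The knockout table held 9 of the 10 genes among 17769 genes, and the resistance table held 10 of the 10 among 60510. CA1 was not analysed in the knockout libraries.

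The knockout table held 3 groups of 3 libraries. EV cells carried the empty vector, HSP90α-KO cells had HSP90AA1 disrupted and HSP90β-KO cells had HSP90AB1 disrupted, in each case with Cas9 and a guide RNA delivered by lentivirus. Knockout cells were sorted by fluorescence and selected as single clones, and the labels do not say which clone a library came from. The resistance table held 2 groups of 3 libraries. PUHr cells were grown for months in rising amounts of PU-H71, an inhibitor that binds the HSP90 N-terminal domain, and resistant clones were then picked. Parental cells were kept in parallel in DMSO, the solvent. In both designs the effect of the knockout or of the resistance and that of the clone cannot be told apart. The libraries held between 19594381 and 26216730 reads on genes, so that 1 read was worth between 0.0381 and 0.0518 CPM, the unit of reads scaled to library size.

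Carbonic anhydrases differ in where they work. CA1, CA2 and CA13 are cytosolic, CA5B is mitochondrial, CA12 spans the plasma membrane with its active site outside the cell, and CA8 lacks the catalytic activity of the family and binds the inositol trisphosphate receptor. SLC4A1 (band 3, AE1), SLC4A2 (AE2) and SLC4A3 (AE3) exchange chloride for bicarbonate, whereas SLC4A7 (NBCn1) imports sodium together with bicarbonate. In red cells CA2 and band 3 work in series to carry CO2 as bicarbonate in plasma, and in tumour cells CA12 and SLC4A7 take part in the control of intracellular pH.

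The RNA of the targeted genes was compared with the labels. RNA level alone does not show a knockout, which the study examined by western blot and Sanger sequencing. HSP90AA1 measured 716, 683 and 713 CPM in the EV libraries, 92.6, 88.0 and 90.8 CPM in the HSP90α-KO libraries and between 1190.4 and 1218.2 CPM in the HSP90β-KO libraries. HSP90AB1 lay between 2782.5 and 2823 CPM in EV, between 3267 and 3344 CPM in HSP90α-KO and between 1889 and 1939 CPM in HSP90β-KO. For each target the libraries of its own knockout were the lowest of the 9 and did not overlap the others. The log2 fold change against EV was -2.96 for HSP90AA1 in HSP90α-KO (limma, Benjamini-Hochberg adjusted p = 2.6e-30) and -0.55 for HSP90AB1 in HSP90β-KO (limma, adjusted p = 1.3e-15). In PUHr, HSP90AA1 ranged from 1553 to 1592 CPM against 1696 to 1721 CPM in parental cells. HSP90AB1 ranged from 3760 to 3953 CPM in PUHr against 4497 to 4578 CPM in parental cells. Both were lower in PUHr at a limma adjusted p under 0.05. Protein was not measured in these libraries. Markers of the erythroleukemic K562 line were present in every group. Of 9 such markers 8 were in the knockout table, and they summed to 926 ± 3.4 CPM in EV, 735 ± 8.5 CPM in HSP90α-KO and 799 ± 19.4 CPM in HSP90β-KO (SD, n = 3). The 9 in the resistance table summed to 2633 ± 16.0 CPM in parental and 2028 ± 39.6 CPM in PUHr cells (SD, n = 3). TFRC was the most abundant of them in all 5 groups, and HBE1 had at most 3 reads in each PUHr library. Of the 8 tested, 2 were higher and 5 lower in HSP90α-KO, 0 higher and 5 lower in HSP90β-KO, and 2 higher and 4 lower in PUHr, with median log2 fold changes of -0.68, -0.24 and -0.13, where 54.2%, 34.4% and 51.4% of all genes tested were either (limma adjusted p under 0.05). HBG2, HBZ and ALAS2 fell in HSP90α-KO, by 1.22, 1.04 and 1.56 on the log2 scale. ALAS2 rose by 1.01 in PUHr. The part of these marker differences in the results on the bicarbonate genes was not tested.

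A gene is called differing at a limma adjusted p under 0.05, and changed when its log2 fold change was also above 1 or below -1. All p-values measure only the spread between these libraries, 3 per group. The 9 genes in the knockout table and the 10 in the resistance table passed the filter on low values, a log2 CPM of at least -1 in at least 3 libraries. CA2 passed it in the knockout table only through HSP90β-KO and SLC4A1 only through HSP90α-KO, and in the resistance table CA1, CA12, SLC4A1 and SLC4A7 passed it only through parental cells. The test of these is not independent of the filter, so they are described there without a test and are left out of the counts that follow. Genes that would fail the filter without the libraries of 1 group are likewise left out of the list and neighbour counts below. They are called genes that pass only through 1 group, and include CD79A, which would fail without any of the knockout table's groups. In HSP90α-KO against EV, 5 of the 7 other genes differed, against 54.2% of all genes tested. SLC4A3 was changed toward higher values, where 5.32% of all genes were, and SLC4A7 toward lower values, where 5.01% were. In HSP90β-KO against EV, 2 of 7 differed, against 34.4% of all genes. None was changed toward higher values (1.83% of all genes), and CA12 was toward lower (2.65%). In PUHr against parental, 4 of the 6 other genes differed, against 51.4% of all genes. CA2 was changed toward higher values, where 5.37% of genes were, and none toward lower values, where 4.69% were. Between the knockouts, 5 of 7 differed, against 59.9% of genes, with CA12 and SLC4A3 changed toward higher values in HSP90α-KO (7.14% of genes) and SLC4A7 toward lower (5.57%). Without the genes that pass only through 1 group, the shares of all genes that differed were 54.3% in HSP90α-KO, 35.1% in HSP90β-KO, 51.9% in PUHr and 60.1% between the knockouts, and the shares changed toward higher and lower values were 3.63% and 4.25%, 1.34% and 1.97%, 3.64% and 2.73%, and 5.20% and 4.82%. Nothing is read from the members' counts, since earlier results were known when the genes were chosen. The comparisons of both knockouts share the EV libraries. In bulk RNA a smaller number of cells that express a gene and less RNA per cell cannot be told apart.

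**Figure D1:**
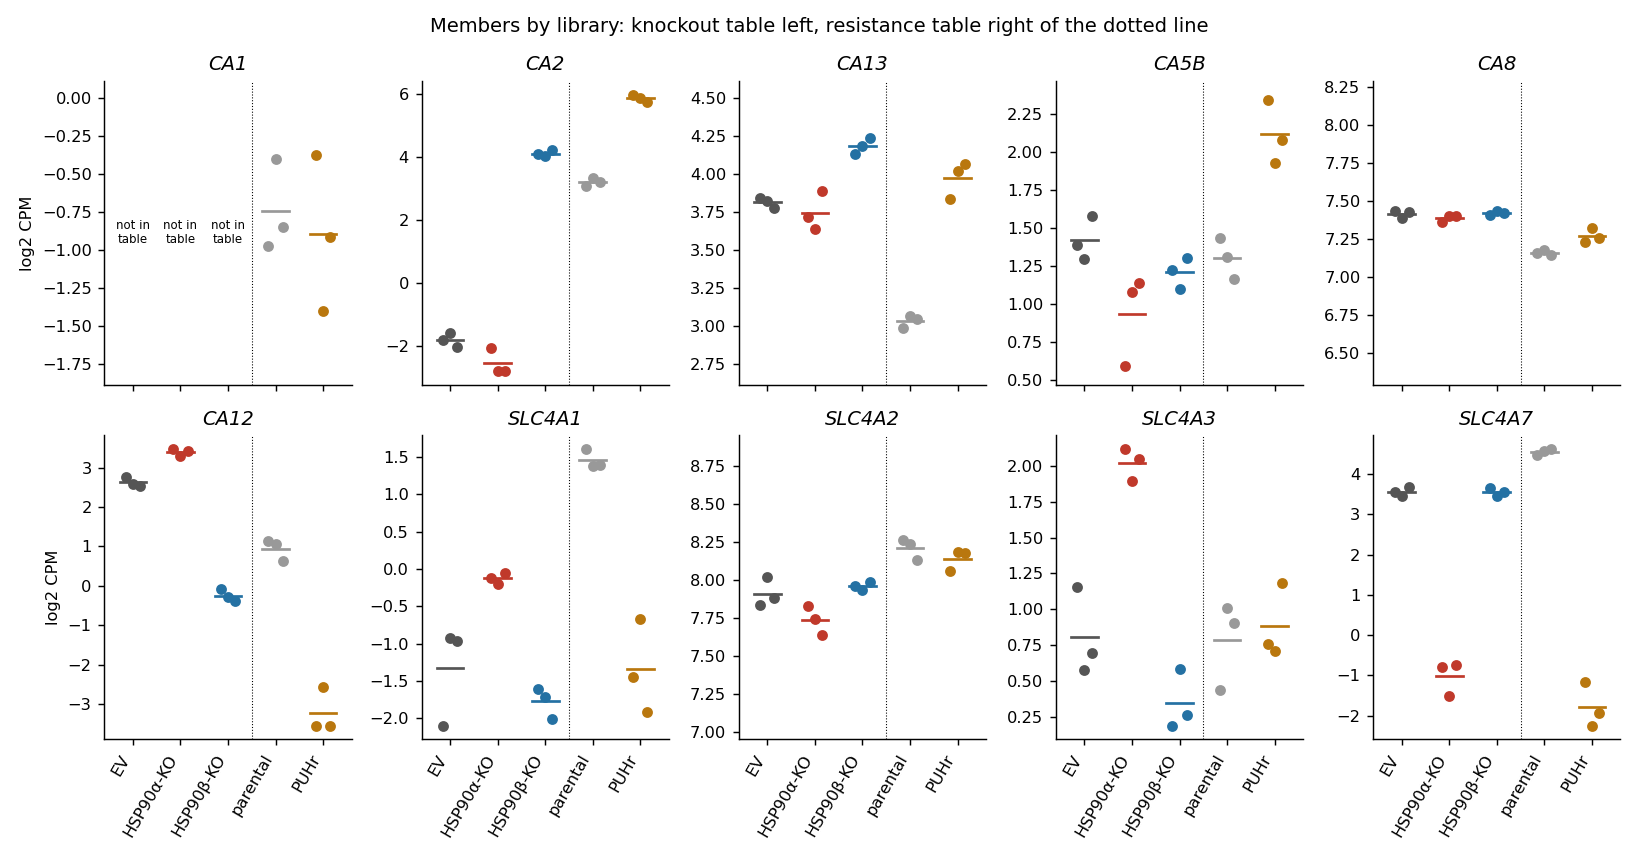
Expression of the 10 genes in each library (y axis, log2 CPM with the prior count, its range set per panel). Dots are libraries and bars are group means, and a dotted line separates the knockout table from the resistance table, which were normalized separately. SLC4A7 is low in HSP90α-KO and PUHr and CA12 in HSP90β-KO and PUHr, each against the control of its own table. CA1 was not analysed in the knockout libraries.

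**Figure D2:**
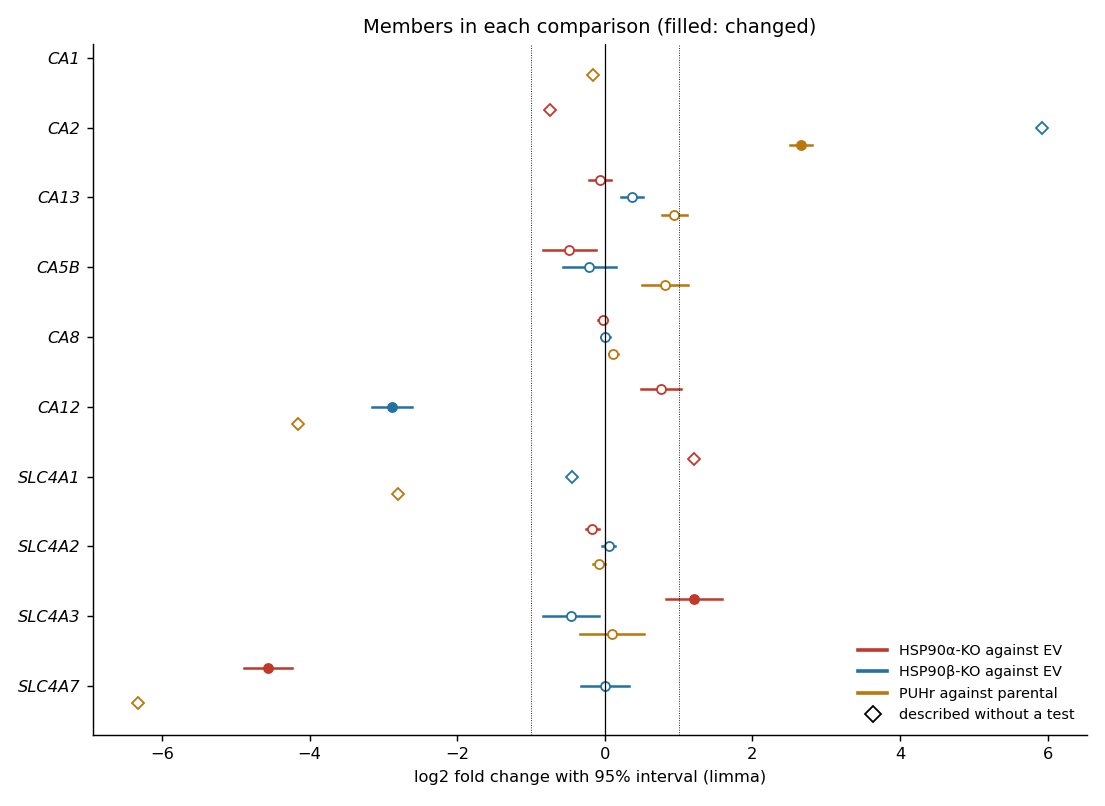
Log2 fold changes of the 10 genes in 3 comparisons (x axis, log2), with 95% intervals where tested. Filled points are changed, open points are not, and dotted lines mark a log2 fold change of 1 and -1. Diamonds are described without a test (CA2 and SLC4A1 in the knockouts, and CA1, CA12, SLC4A1 and SLC4A7 in PUHr), and their values depend on the prior count.

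Levels can be compared between genes only per length. As CPM per kb of exon, SLC4A2 was the highest in every group, at 31.9 ± 2.16 in EV and 39.3 ± 1.85 in parental cells (SD, n = 3). CA8 followed in EV at 22.1 ± 0.373 CPM per kb, then CA13 at 2.49 ± 0.0556, SLC4A7 at 1.22 ± 0.0968, CA12 at 0.874 ± 0.0683, SLC4A3 at 0.341 ± 0.0801 and CA5B at 0.304 ± 0.0323. The last 2 of these lay within their spread of each other. CA2, at 0.0969 ± 0.0221, and SLC4A1, at 0.0648 ± 0.0320, were the lowest and also lay within their spread. In HSP90β-KO CA2 took the third place at 8.54 ± 0.548 CPM per kb, and in PUHr the second at 29.0 ± 2.25, above CA8 at 20.026 ± 0.677. In PUHr CA12 was last at 0.00398 ± 0.00690 CPM per kb. EV and parental levels stand side by side with no test, because the tables were normalized separately. CA2 measured 0.195 CPM in EV and 9.17 CPM in parental cells, and SLC4A1 0.332 and 2.67 CPM.

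**Figure D3:**
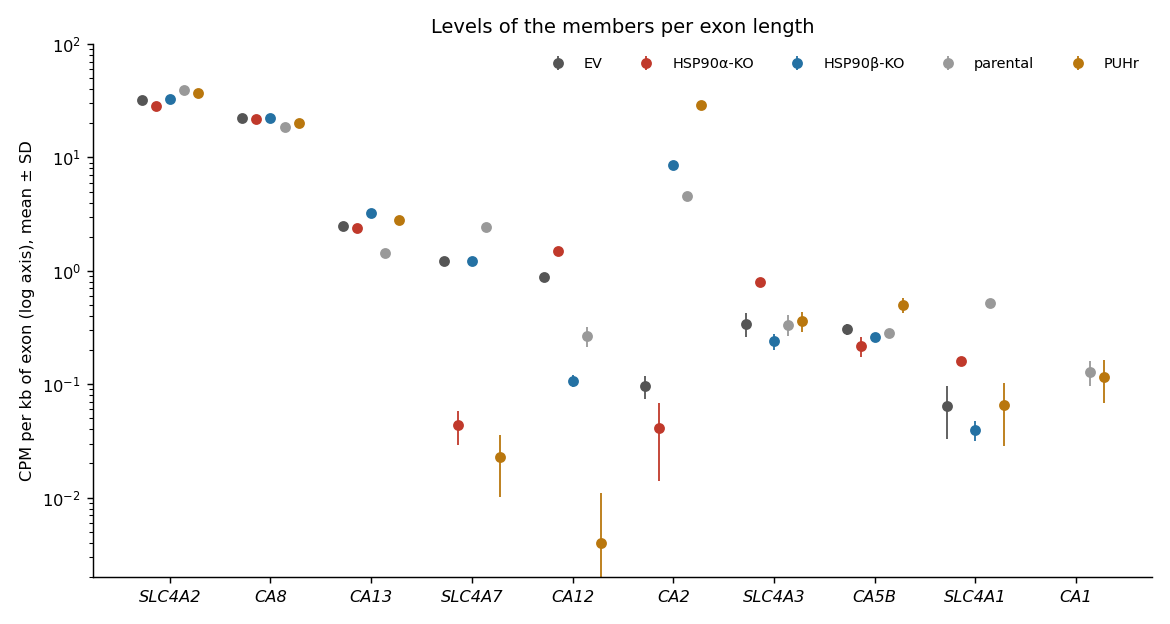
Level of each gene per kb of exon in the 5 groups (CPM per kb, logarithmic axis, mean and SD of 3 libraries). SLC4A2 is the highest in each group, and CA2 spans from 0.0415 in HSP90α-KO to 29.0 in PUHr. The knockout and resistance tables were normalized separately.

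CA2, the fast cytosolic enzyme, is encoded in a cluster on chromosome 8 with CA13, CA1 and CA3 (CA2, ENSG00000104267, chr8:85463968-85481493, plus strand, build GRCh38). It had 4, 5 and 4 reads in the EV libraries, 3, 1 and 1 in HSP90α-KO and 352, 381 and 464 in HSP90β-KO. The HSP90β-KO values of 16.8, 16.3 and 18.4 CPM thus stood apart from a floor of a few reads in the other 6 libraries. The reads in HSP90β-KO were 89.9-fold those in EV (exact conditional 95% interval 52.4 to 169), and those in HSP90α-KO 0.441-fold (0.123 to 1.32). Such intervals cover counting error only. In the resistance libraries CA2 measured 8.41, 9.90 and 9.19 CPM in parental and 62.6, 58.3 and 53.6 CPM in PUHr libraries, from 631 and 4157 reads. All 3 PUHr libraries lay above all parental libraries. CA2 rose 6.30-fold in PUHr, a log2 fold change of 2.65 (SE 0.07, 95% interval 2.51 to 2.80, limma adjusted p = 4.4e-13).

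CA13, a cytosolic enzyme at the other end of the cluster (ENSG00000185015, chr8:85220587-85284073, plus strand), was read from between 174 and 474 reads per library. It measured 14.2, 14.025 and 13.6 CPM in EV, 13.033, 12.3 and 14.7 CPM in HSP90α-KO and 17.5, 18.0 and 18.8 CPM in HSP90β-KO. The HSP90β-KO libraries were the highest 3 of the 9, whereas HSP90α-KO and EV overlapped. In HSP90β-KO CA13 was 0.37 higher on the log2 scale (95% interval 0.22 to 0.52, limma adjusted p = 0.00018), short of the fold threshold, and in HSP90α-KO it was -0.07 (limma adjusted p = 0.45). In PUHr it measured 14.2, 16.1 and 16.6 CPM against 7.82, 8.26 and 8.16 CPM in parental cells, without overlap. Its log2 fold change in PUHr was 0.94 (95% interval 0.77 to 1.11, limma adjusted p = 1.3e-07). It reached 1.01, past the fold threshold, when PUHr replicate 1 was left out.

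CA1, the other abundant carbonic anhydrase of red cells (ENSG00000133742, chr8:85327608-85379014, minus strand), was near the floor. It had 10, 16 and 10 reads in parental and 17, 7 and 10 reads in PUHr libraries, which overlapped, with a log2 fold change of -0.16. CA3, a muscle isoform between CA1 and CA2, differed in HSP90α-KO by -0.91 (limma adjusted p = 0.0077) and in PUHr by 0.74 (limma adjusted p = 0.018), but not in HSP90β-KO (0.20, limma adjusted p = 0.62). CA3 too was read from few counts, with 13, 21 and 26 reads in EV, 9, 6 and 10 in HSP90α-KO and 16, 32 and 24 in HSP90β-KO. In the resistance libraries CA3 had 10, 12 and 9 reads in parental and 21, 21 and 16 in PUHr cells. CA1 overlaps CA3 on the opposite strand, and the strand setting of the read counting is not given in the sources used here, so reads of the 2 cannot be told apart. CA3-AS1, an antisense RNA that overlaps the start of CA2 and was chosen after its values were seen, had 0, 1 and 0 reads in EV, 0, 0 and 1 in HSP90α-KO and 10, 8 and 19 in HSP90β-KO. It had 6, 7 and 4 reads in parental and 31, 26 and 24 in PUHr libraries. The CA3-AS1 reads were high in the same libraries as those of CA2, and reads of the 2 cannot be told apart either. E2F5, a cell cycle transcription factor gene beside the cluster, differed by -0.33 in HSP90α-KO, 0.28 in HSP90β-KO and 0.59 in PUHr. Of the tested genes within 500 kb of the start of CA2, 0 were higher and 3 of 5 lower in HSP90α-KO. In HSP90β-KO 2 of 5 were higher and 0 lower, and in PUHr 4 of 6 higher and 1 lower. The genes counted include CA13, CA3 and E2F5, whose values are given above, so the counts are not separate from those values. Over all genes counted the same way, 4299 of 15858 were higher and 4308 lower in HSP90α-KO, and 2821 higher and 2742 lower in HSP90β-KO. In PUHr 3756 of 14574 were higher and 3815 lower.

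CA8, the noncatalytic member (ENSG00000178538, chr8:60185412-60281400, minus strand), was the most evenly expressed carbonic anhydrase. It held between 167 and 172 CPM in EV, 164 and 169 CPM in HSP90α-KO and 169.9 and 173 CPM in HSP90β-KO. EV overlapped both knockouts. Neither knockout passed the test, with log2 fold changes of -0.03 and 0.01. With quantile normalization the call was gained in HSP90α-KO against EV (-0.089, limma adjusted p = 0.014) and between the knockouts (-0.10, limma adjusted p = 0.0041). In PUHr it ranged from 150.0 to 160.1 CPM against 141 to 144 CPM in parental cells, a log2 fold change of 0.11 (limma adjusted p = 0.0050). This call was lost with median centring (limma adjusted p = 0.066) and without the intensity trend (0.059), over a range of 0.00054 to 0.066.

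CA5B, the mitochondrial enzyme (ENSG00000169239, chrX:15688830-15788411, plus strand), overlaps the pseudogene CA5BP1 on the same strand. CA5B also shares nearly identical sequence with CA5BP1, so its counts are uncertain. It measured 2.52, 2.36 and 2.90 CPM in EV, 1.42, 2.02 and 2.10 CPM in HSP90α-KO and 2.24, 2.05 and 2.38 CPM in HSP90β-KO. The HSP90α-KO libraries lay below EV, while HSP90β-KO overlapped both. The log2 fold change of -0.48 in HSP90α-KO (limma adjusted p = 0.021) was lost without EV replicate 3 (-0.40, adjusted p = 0.097) or HSP90α-KO replicate 1 (-0.31, adjusted p = 0.15), with fold changes from -0.58 to -0.31 when 1 library was left out and adjusted p in a range of 0.009 to 0.15 over the alternatives. In PUHr CA5B measured 4.98, 3.72 and 4.14 CPM against 2.62, 2.39 and 2.16 CPM in parental cells, without overlap, a log2 fold change of 0.81 (95% interval 0.50 to 1.12, limma adjusted p = 0.00027). CA5BP1, chosen after its values were seen, measured 3.42, 3.86 and 3.51 CPM in EV, 4.49, 4.82 and 4.11 CPM in HSP90α-KO, above EV where CA5B was below it, and 3.05, 2.69 and 3.25 CPM in HSP90β-KO. It measured 7.55, 8.61 and 8.68 CPM in PUHr against 7.23, 7.05 and 6.29 CPM in parental cells. On the X chromosome around CA5B, 3 of the 7 genes counted within 500 kb were higher and 0 lower in HSP90α-KO, with a median log2 fold change of 0.31, and in PUHr 4 of 9 were higher and 2 lower (median -0.05). CA5BP1 is among the genes counted. Within 5 Mb, a width chosen after seeing the data, 22 of 36 were higher and 2 lower in HSP90α-KO (median 0.32). In PUHr 26 of 38 were higher and 6 lower (median 0.51). Over all genes counted the same way, 4299 of 15858 were higher and 4308 lower in HSP90α-KO, and 3756 of 14574 higher and 3815 lower in PUHr. The part of the region in the CA5B value was not tested.

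CA12, the membrane enzyme (ENSG00000074410, chr15:63321378-63381846, minus strand), moved in opposite directions in the knockouts. It measured 6.66, 5.93 and 5.76 CPM in EV, 10.983, 9.79 and 10.6 CPM in HSP90α-KO and 0.858, 0.725 and 0.673 CPM in HSP90β-KO, where it had 18, 17 and 17 reads. All 3 groups stood apart without overlap. CA12 was 0.77 higher on the log2 scale in HSP90α-KO (95% interval 0.49 to 1.04, limma adjusted p = 2.1e-05), which is short of the fold threshold. In HSP90β-KO it fell 7.38-fold, a log2 fold change of -2.88 (95% interval -3.16 to -2.61, limma adjusted p = 1.7e-15). With pseudocounts of 1 and 5 CPM that value was -2.02 and -0.95, the second under the fold threshold. Set against each other directly, HSP90α-KO exceeded HSP90β-KO by 3.65 on the log2 scale (SE 0.13, limma adjusted p = 1.4e-18), or 12.5-fold, and by 2.71 and 1.42 with those pseudocounts. In the resistance libraries CA12 had 50, 48 and 31 reads in parental and 0, 2 and 0 in PUHr cells. The 2 reads against 129 put PUHr 66.8-fold lower (exact conditional 95% interval 18.1 to 558). The fitted fold change depends on the prior count and is not given.

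LINC02568, a long noncoding RNA gene that starts 8.29 kb from the start of CA12 on the opposite strand (chr15:63390136-63438320) and was chosen after its values were seen, had the same order of groups as CA12. It had 123, 130 and 166 reads in EV, 180, 167 and 212 in HSP90α-KO and 12, 10 and 7 in HSP90β-KO. In the resistance libraries it had 69, 104 and 73 reads in parental and 0, 0 and 2 in PUHr cells. Its log2 fold change was 0.60 in HSP90α-KO and -3.64 in HSP90β-KO, given as a description, and 2 reads against 246 put PUHr 127-fold lower (34.9 to 1058.0). Within 500 kb of CA12, 7 of 9 tested genes were higher and 0 lower in HSP90α-KO (median 0.49). In HSP90β-KO 5 of 9 were lower and 0 higher (median -0.18), and in PUHr 6 of 8 lower and 1 higher (median -0.55). LINC02568 is among the 9 tested in the knockouts and not among the 8 in PUHr. Over all genes counted the same way, 4299 of 15858 were higher and 4308 lower in HSP90α-KO, and 2821 higher and 2742 lower in HSP90β-KO. In PUHr 3756 of 14574 were higher and 3815 lower. Within 5 Mb of CA12 the medians were 0.05, 0.01 and -0.02 over 83, 83 and 76 genes.

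Promoter windows are shown for their base composition and motifs. RefSeq starts on GRCh38.p14 gave 9 windows for 5 of the genes, CA5B, CA12, SLC4A2, SLC4A3 and SLC4A7, each from 250 bases before to 50 after a start. Printed are 4 windows of the 3 among these 5 that were changed in a knockout. No window was found for SLC4A1. Motifs were searched on both strands. GAANNTTC, the core of a heat shock element, stands in 6.77% of 35116 such windows. The GATA motif written AGATAA stands in 10.3% of them, its other form, written with the letters TGATAA, in 7.53%, and the core of a hypoxia response element, ACGTG, in 21.4%. Matches are in capitals. The windows are SLC4A7 at its gene start (chr3:27484335-27484634, minus strand), a downstream SLC4A7 start (chr3:27456729-27457028, minus strand), CA12 (chr15:63381797-63382096, minus strand) at its gene start and SLC4A3 at a start inside the gene, downstream of its gene start (chr2:219630807-219631106, plus strand).
SLC4A7 first: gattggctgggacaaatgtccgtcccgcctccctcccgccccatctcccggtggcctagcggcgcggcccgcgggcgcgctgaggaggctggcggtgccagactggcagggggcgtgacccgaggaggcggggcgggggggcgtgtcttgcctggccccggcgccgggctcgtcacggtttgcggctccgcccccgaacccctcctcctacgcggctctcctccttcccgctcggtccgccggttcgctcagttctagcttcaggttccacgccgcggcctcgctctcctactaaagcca
SLC4A7 second: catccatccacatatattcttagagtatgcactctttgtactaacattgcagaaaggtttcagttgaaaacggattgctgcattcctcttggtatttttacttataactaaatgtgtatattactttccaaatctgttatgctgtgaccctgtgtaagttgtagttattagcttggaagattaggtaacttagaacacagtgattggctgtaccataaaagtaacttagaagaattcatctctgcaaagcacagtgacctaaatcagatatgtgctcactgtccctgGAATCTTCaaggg
CA12: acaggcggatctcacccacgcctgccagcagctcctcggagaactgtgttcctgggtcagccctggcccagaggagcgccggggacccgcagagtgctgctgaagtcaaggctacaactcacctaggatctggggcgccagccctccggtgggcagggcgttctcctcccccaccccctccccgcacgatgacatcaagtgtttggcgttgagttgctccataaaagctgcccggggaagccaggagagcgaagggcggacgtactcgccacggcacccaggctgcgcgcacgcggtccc
SLC4A3: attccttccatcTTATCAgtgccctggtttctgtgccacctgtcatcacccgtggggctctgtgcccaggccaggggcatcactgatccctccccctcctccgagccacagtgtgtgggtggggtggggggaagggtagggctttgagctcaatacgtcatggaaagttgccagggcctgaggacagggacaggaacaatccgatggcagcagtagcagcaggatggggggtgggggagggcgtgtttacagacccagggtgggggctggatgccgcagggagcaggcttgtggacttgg
The first SLC4A7 window held 36 CpG dinucleotides, more than 87.3% of windows, and none of the motifs. The second held 1 CpG, more than 3.96% of windows, and 1 match to GAANNTTC, GAATCTTC. The CA12 window held 22 CpG, more than 62.3% of windows, and no motif. The SLC4A3 window held 6 CpG, more than 33.7% of windows, and 1 TGATAA match, read as TTATCA. The median window held 14 CpG. A match describes letters and says nothing about binding.

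SLC4A7, the sodium bicarbonate cotransporter (ENSG00000033867, chr3:27372721-27484420, minus strand), was nearly lost in 2 of the 3 comparisons. It measured 11.6, 10.8 and 12.7 CPM in EV, 0.488, 0.259 and 0.513 CPM in HSP90α-KO, where it had 10, 5 and 10 reads, and 12.5, 10.966 and 11.6 CPM in HSP90β-KO. The HSP90α-KO libraries lay far below the others, and HSP90β-KO and EV overlapped. SLC4A7 fell in HSP90α-KO by 4.57 on the log2 scale (SE 0.16, 95% interval -4.90 to -4.24, limma adjusted p = 1.1e-18), and by 3.16 and 1.62 with pseudocounts of 1 and 5 CPM. By reads, 25 against 801, it was 27.9-fold lower (18.8 to 43.4). In HSP90β-KO its log2 fold change had a 95% interval of -0.33 to 0.33. In the resistance libraries it had 523, 561 and 522 reads in parental cells, or 22.1, 23.5 and 24.5 CPM, and 9, 3 and 4 reads in PUHr cells. The PUHr libraries lay below the parental ones without overlap, with 16 reads against 1606, 104-fold lower (63.8 to 182). LINC01980 was the only tested gene within 500 kb, with log2 fold changes of 0.20 in HSP90α-KO, -0.77 in HSP90β-KO, where it was lower (limma adjusted p = 0.026), and -0.25 in PUHr. Within 5 Mb the median was 0.06 over 20 genes in HSP90α-KO and -0.07 over 17 genes in PUHr.

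SLC4A3, the AE3 exchanger (ENSG00000114923, chr2:219627394-219641980, plus strand), rose in HSP90α-KO. It measured 2.14, 1.398 and 1.52 CPM in EV, 4.25, 3.63 and 4.06 CPM in HSP90α-KO and 1.05, 1.41 and 1.11 CPM in HSP90β-KO, from between 22 and 87 reads. HSP90α-KO lay above the other 6 libraries, and HSP90β-KO overlapped EV. The rise was 2.32-fold, a log2 fold change of 1.21 (95% interval 0.83 to 1.59, limma adjusted p = 3.7e-06), and 0.90 and 0.43 with pseudocounts of 1 and 5 CPM. In HSP90β-KO the log2 fold change was -0.46 (95% interval -0.84 to -0.08) and did not pass the test (limma adjusted p = 0.054), though it did under 4 alternatives (limma adjusted p from 0.028 to 0.3 over all of them). Genes around it were lower there, with a median of -0.51 over 21 genes within 500 kb. Of these, 17 were lower and 0 higher, where 2742 and 2821 of 15858 were over all genes counted the same way. Within 5 Mb of SLC4A3 the median was -0.50 over 62 genes. The part of this region in the SLC4A3 value was not tested. In PUHr, with 40, 37 and 49 reads against 30, 46 and 38, the groups overlapped, and the log2 fold change of 0.10 (limma adjusted p = 0.71) changed sign without parental replicate 1 or PUHr replicate 3.

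SLC4A2, the widely expressed AE2 exchanger (ENSG00000164889, chr7:151057210-151076526, plus strand), varied least among the transporters. It ranged from 228 to 259.5 CPM in EV, 199.5 to 228 CPM in HSP90α-KO and 244.8 to 254 CPM in HSP90β-KO. HSP90α-KO reached just below EV, at 228.11 against 228.23 CPM. It was 0.17 lower on the log2 scale in HSP90α-KO (limma adjusted p = 0.0013, but 0.062 without the intensity trend, in a range of 3.3e-05 to 0.062) and 0.05 higher in HSP90β-KO (limma adjusted p = 0.38). SLC4A2 passed the test in HSP90β-KO under 1 alternative (limma adjusted p from 0.048 to 0.89 over all of them). In PUHr it ranged from 267 to 291 CPM against 281 to 308 CPM in parental cells, a log2 fold change of -0.07 (limma adjusted p = 0.11). The call was gained with median centring and without parental replicate 3 or PUHr replicate 2 (limma adjusted p from 0.0062 to 0.61 over the alternatives). SLC4A2 overlaps CDK5 on the opposite strand, and reads of the 2 cannot be told apart where the strand setting is unknown.

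SLC4A1, the red cell exchanger band 3 (ENSG00000004939, chr17:44248390-44268141, minus strand), was read from few counts in the knockout libraries. It had 3, 9 and 11 reads in EV, 17, 15 and 17 in HSP90α-KO and 5, 5 and 4 in HSP90β-KO. HSP90α-KO lay above the other 6 libraries, and HSP90β-KO overlapped EV. By reads, 49 against 23, SLC4A1 was 2.44-fold higher in HSP90α-KO than in EV (1.46 to 4.20, counting error only). In the resistance libraries it measured 2.96, 2.52 and 2.53 CPM in parental cells and 0.281, 0.544 and 0.178 CPM in PUHr, from 184 and 24 reads. All PUHr libraries lay below all parental libraries, by reads 7.94-fold (5.17 to 12.7). The genes within 500 kb had medians of -0.04 over 26 genes in HSP90α-KO and 0.01 over 24 genes in PUHr.

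Between the knockouts, tested directly, SLC4A3 was 1.68 higher on the log2 scale in HSP90α-KO (limma adjusted p = 1.3e-08), SLC4A7 4.57 lower (6.3e-19), CA13 0.44 lower (8.1e-06) and SLC4A2 0.22 lower (6e-05). With a pseudocount of 5 CPM the SLC4A3 value was 0.54, under the fold threshold. The SLC4A7 value ran from -4.76 to -1.62 over the alternatives. CA5B and CA8 did not pass, at -0.27 and -0.03. SLC4A1, described only, had 49 reads in HSP90α-KO and 14 in HSP90β-KO.

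Genes of the same families and pathway were counted next, and the shares of all genes given above, 54.3%, 35.1% and 51.9% differing in HSP90α-KO, HSP90β-KO and PUHr, are the background of these counts. Of the 9 other carbonic anhydrases, 3 were tested in each table, CA3, CA11 and CA14, and none was changed against a control, with CA3 lower in HSP90α-KO than in HSP90β-KO (-1.11 on the log2 scale). Of these, 2 were lower in HSP90α-KO, 2 higher in HSP90β-KO and 2 higher in PUHr at the adjusted p alone, with medians of -0.35, 0.22 and 0.29. CA9, the hypoxia marker of the family, had 0 reads in each of the 6 resistance libraries, which allows up to 3 reads per library. Of the other SLC4 genes, SLC4A11 rose in HSP90α-KO from 0.675 to 3.36 CPM (log2 fold change 2.20, limma adjusted p = 7.4e-08), none of the 3 tested differed in HSP90β-KO, and in PUHr SLC4A8 rose by 1.19 on the log2 scale. SLC4A4 had 17 reads in PUHr against 47 in parental cells, 2.86-fold lower (1.61 to 5.32). The medians of this list were 0.36, -0.02 and 0.44, the last over 2 genes. Among SLC26 anion exchangers 7 were tested in each table, and SLC26A9, with 5 reads in HSP90β-KO against 38 in EV, was 7.78-fold lower (3.06 to 25.3) and in PUHr was 2.76-fold lower (1.49 to 5.38). Of the 6 others 1 differed in HSP90α-KO, 1 in HSP90β-KO and 2 in PUHr, with medians of -0.12, -0.01 and 0.11. Of 11 proton and lactate exporters 9 differed in HSP90α-KO (4 higher, 5 lower), 6 in HSP90β-KO (3 higher, 3 lower) and 8 in PUHr (5 higher, 3 lower), with medians of 0.03, -0.04 and 0.01. HVCN1, a voltage-gated proton channel, rose by 1.35 in HSP90α-KO and fell by 1.10 in HSP90β-KO and by 1.92 in PUHr on the log2 scale, while SLC9A3 rose by 1.03 in PUHr. None of the 11 tested band 3 partners and gas channels was changed against a control. At the adjusted p alone 3 were higher and 5 lower in HSP90α-KO, 2 higher and 5 lower in HSP90β-KO, and 7 higher and 2 lower in PUHr. Their median log2 fold changes were -0.10, -0.12 and 0.12 in HSP90α-KO, HSP90β-KO and PUHr, where over all genes they were -0.010, 0.0016 and 0.0047.

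Of the 7 tested regulators of bicarbonate transporters, 6 differed in HSP90α-KO (4 higher, 2 lower), 4 in HSP90β-KO (2 higher, 2 lower) and 5 in PUHr (4 higher, 1 lower), with medians of 0.33, -0.07 and 0.08. STK39, a kinase of the WNK pathway, measured 3.01 ± 0.288 CPM in EV, 12.9 ± 0.932 in HSP90α-KO and 2.73 ± 0.181 in HSP90β-KO, and 2.68 ± 0.522 CPM in parental and 17.3 ± 0.659 in PUHr cells (SD, n = 3). It rose by 2.07 in HSP90α-KO and 2.67 in PUHr on the log2 scale, and WNK4 rose by 1.04 in HSP90α-KO. Among 8 erythroid transcription factors, BCL11A was the only one changed in a knockout against EV. It had 7 reads in HSP90α-KO against 732 in EV, 91.1-fold lower (44.006 to 227), and 2 reads in PUHr against 366 in parental cells, 189.6-fold lower (52.1 to 1571), where it passed the filter only through parental cells. SLC4A7 and BCL11A were thus low in the same groups, which was not tested further. Of the 8 factors 4 were higher and 4 lower in HSP90α-KO, 0 higher and 5 lower in HSP90β-KO, and of the 7 without BCL11A 3 were higher and 3 lower in PUHr, with medians of 0.0015, -0.23 and 0.02.

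Markers of other blood cells were summed in the same way. Megakaryocyte markers, 3 of 7 present in the knockout table, summed to 16.7, 16.5 and 11.9 CPM in EV, HSP90α-KO and HSP90β-KO and to 15.7 and 11.6 CPM in parental and PUHr cells. Of the 2 counted in the knockouts, 1 was lower in HSP90α-KO and 2 in HSP90β-KO, and 0 were higher, with medians of -0.15 and -0.52. ITGA2B led the markers in each group, GP9 and PF4 had at most 3 reads in each resistance library, and in PUHr ITGA2B fell by 1.11 on the log2 scale. Of the 3 counted there 1 was lower and 1 higher (ITGB3, 0.89, limma adjusted p = 0.00071), with a median of 0.21, and PPBP, which passed the filter only through PUHr, had 89 reads against 20 in parental cells. Of 8 monocyte and granulocyte markers only LYZ was in the knockout table, at 41.0, 61.4 and 30.8 CPM, and it differed by 0.58 in HSP90α-KO (limma adjusted p = 2.9e-10), -0.41 in HSP90β-KO (3.3e-07) and -0.28 in PUHr (0.00041). Of the 8, 5 had at most 3 reads per resistance library. CD14, which did not pass the filter, had 1, 3 and 6 reads in parental and 9, 7 and 14 in PUHr libraries. Lymphocyte markers summed to 17.2, 11.7 and 25.5 CPM in the knockout table and to 14.1 and 10.5 CPM in parental and PUHr cells. CD3D led them in each group, CD3E fell by 2.85 in HSP90α-KO and CD3D rose by 1.26 in HSP90β-KO on the log2 scale. Of the 4 counted, 0 were higher and 2 lower in HSP90α-KO, 2 higher and 0 lower in HSP90β-KO, and 0 higher and 3 lower in PUHr, with medians of -0.33, 0.50 and -0.49. The part of these markers in the results was not tested.

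For CA2, CA12, SLC4A1, SLC4A3 and SLC4A7, the 3 genes with the most similar profile over the 9 knockout libraries were found among 12342 or 12341 genes with a mean log2 CPM of at least 1. These correlations rest on 3 groups and are descriptions only. CA2 was most like AIG1 (r = 0.997), MTCH1 (0.996) and TCAF2 (0.996), and CA12 like NIBAN1 (0.998), UBE2F (0.998) and MEG3 (0.998). SLC4A7 was most like NFASC (0.997), RYR2 (0.997) and OCRL (0.996), and SLC4A3 like XK (0.990), PNRC2 (0.989) and MICU2 (0.988). SLC4A1, with its few reads, was most like PSD (0.963), TMCO6 (0.956) and CASP4 (0.955). A correlation above 0.95 was reached by 197 genes for CA2, 361 for CA12, 10 for SLC4A1, 456 for SLC4A3 and 749 for SLC4A7.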

How the data were processed

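RNA-seq of 15 K562 libraries was analysed from 2 tables. The authors made stranded mRNA libraries, aligned single reads to hg38 (STAR), summed them over genes (featureCounts) and scaled them to library size (edgeR), per the submitters' notes and the methods of the study. Versions and the strand setting of the counting are not given in the sources used here. Both deposited tables hold log2 CPM that the authors computed with a prior count. Taken back to CPM less the floor, they were whole multiples of 1 read, with a largest deviation of 0.00138 reads. The parental columns spell the solvent DSMO, read as DMSO.

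The members and lists were chosen with earlier results of these data known. Genes with a log2 CPM of at least -1 in at least 3 libraries were tested, 17039 and 16503, in 1 fit per table with limma 3.58.1 (R 4.3.3; eBayes with an intensity trend, two-sided), adjusted by Benjamini-Hochberg over all tested genes. Fold changes are on the log2 scale of CPM with the prior count, which understates those of low genes. Read ratios have exact conditional 95% intervals. Positions are from GENCODE 44 and promoter windows from RefSeq (GRCh38.p14), those of chromosome 8 left out. Text and figures used Python 3.11.15, numpy 2.4.6, pandas 2.3.3 and scipy 1.17.1. Named genes were all members, the changed genes of each list (at most 5 by fold), neighbours within 500 kb of a member, and the 3 genes most like each changed member. Some values are not reported here. Lists covered other carbonic anhydrases, other SLC4 genes, SLC26 exchangers, proton and lactate exporters, band 3 partners and gas channels, regulators, erythroid transcription factors, and K562, megakaryocyte, monocyte and granulocyte, and lymphocyte markers. The steps were tested on simulated data. Alternatives covered the filter, other pseudocounts (0.1, 1 and 5 CPM), quantile normalization, voom on the recovered reads, centring on the median, no intensity trend, the 6 libraries compared alone, a replicate block and each library left out.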

Additional observations from a re-analysis of the deposited data

Results flagged for a closer look

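CA12 differed from EV in opposite directions in the knockouts. It was higher in the 3 HSP90α-KO libraries and lower in the 3 HSP90β-KO libraries than in every EV library, and HSP90α-KO set directly against HSP90β-KO gave a difference of 3.65 on the log2 scale (limma, Benjamini-Hochberg adjusted p = 1.4e-18), and of 1.42 with a pseudocount of 5 CPM. The cause was not tested.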

How the results depend on the processing

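Of 673 alternative values of 37 member fold changes, 643 kept their direction and side of the adjusted p threshold, 10 lost that call, 10 gained it and 10 changed sign. The 37 include members that pass the filter only through 1 group. Their calls are not independent of the filter, so the 643 are no measure of stability for them. Of the 643, 11 fell under the fold threshold, 10 of them with pseudocounts of 1 or 5 CPM, and 1 passed it. The number of genes changed in HSP90α-KO against EV, 1760, was 717 with a mean log2 CPM of at least 1, 823 with a pseudocount of 1 CPM and 346 with 5 CPM (1541 to 1729 with 1 library left out). In HSP90β-KO against EV, 764 became 272, 289 and 90 (706 to 742), in HSP90α-KO against HSP90β-KO 2166 became 933, 1162 and 507 (1943 to 2143), and in PUHr 1660 became 751, 941 and 385, and 2497 with no filter (1371 to 1484). Members changed in HSP90α-KO fell from 3 to 1 with pseudocounts of 1 and 5 CPM (2 to 3 with 1 library left out). In HSP90β-KO they fell from 2 to 1 with the stricter filter and 5 CPM (1 to 2), in HSP90α-KO against HSP90β-KO from 5 to 3 with both (4 to 5), and in PUHr from 4 to 2 with both (2 to 5). Leaving out any 1 HSP90β-KO library gave 1 in HSP90β-KO, as CA2 then fails the filter, and leaving out any 1 parental library gave 2 in PUHr, as CA12 and SLC4A7 then fail it. Without PUHr replicate 1 the PUHr count was 5. Members differing in HSP90β-KO, 3, were 5 without EV replicate 2 (2 to 5). These counts of members include CA2 and the other members that pass the filter only through 1 group, whose tests are not independent of it. Without them, 1 member was changed toward higher and 1 toward lower values in HSP90α-KO, and 0 and 1 in HSP90β-KO. Between the knockouts they were 2 and 1, and in PUHr 1 and 0. Nothing is read from these counts.

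Values that changed sign were small. CA8 was -0.036 in HSP90β-KO with median centring (-0.0078 to 0.015 with 1 library left out) and 0.0093 in HSP90α-KO against HSP90β-KO with median centring. With 1 library left out SLC4A7 in HSP90β-KO ran from -0.057 to 0.057, SLC4A3 in PUHr from -0.074 to 0.21 and CA1 in PUHr from -0.42 to 0.10. The cause was not tested.

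The replicate numbers gave no pairing, as the correlations of same-numbered libraries ran from -0.048 to 0.031 in the knockout table and from 0.0068 to 0.045 in the resistance table. With the replicate block 1759, 763 and 2165 genes passed as changed for HSP90α-KO, for HSP90β-KO and between them, and 3, 2, 5 and 4 members over the 4 comparisons, the same counts of members as without it.

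Depth limits genes with few reads, where 1 read is worth between 0.0381 and 0.0518 CPM. This touches CA2 and SLC4A1 in the knockout libraries, SLC4A7 in HSP90α-KO, CA12 in HSP90β-KO, CA1 in the resistance libraries, and CA12, SLC4A1 and SLC4A7 in PUHr.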
